A study of Mus musculus with 24 samples.

Results

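The genes of the cyclin-dependent kinase (CDK) inhibitors were followed across the first 48 h of adipogenic induction of 3T3-L1 cells, with and without knockdown of 14-3-3ζ. They were chosen by name and not by a cut on their values, though with earlier results of these data known: Cdkn1a, Cdkn1b, Cdkn1c, Cdkn2a, Cdkn2b, Cdkn2c, Cdkn2d and Cdkn3. Of these 8 genes, 7 had a row in the expression table, and Cdkn1c was not analysed here. Cdkn2b stood at 2 loci, named here by the identifiers of the table as Cdkn2b XLOC_023217 and Cdkn2b XLOC_021824, so the 7 genes gave 8 loci of the 9262 listed. All 8 passed the filter on low values, at least 1 FPKM in 4 or more libraries, as did 9251 loci in all.

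3T3-L1 is a mouse line of pre-adipocytes that turn into fat-storing cells after a hormone mixture. Cells were transfected with an siRNA against 14-3-3ζ (si14-3-3ζ) or with a control siRNA (siCon). After 24 h they were given dexamethasone (a glucocorticoid, 500 nM), IBMX (which keeps cAMP high, 500 µM) and insulin (172 nM) in medium with 25 mM glucose and 10% fetal bovine serum. RNA was sequenced at 0, 24 and 48 h of induction. The 6 groups were thus si14-3-3ζ cells at 0, 24 and 48 h and siCon cells at 0, 24 and 48 h, with 4 libraries each. Both kinds of cells went through transfection and the same hormones, and an siRNA lowers a transcript without removing the gene. All libraries come from 1 cell line in culture. The methods speak of independent experiments for the work in general, but neither they nor the labels say which libraries came from separate cultures, so the spread from library to library behind the p-values may be partly or wholly technical.

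CDK inhibitors hold cells out of the division cycle by binding CDKs and their cyclins. The Cip/Kip members p21 (Cdkn1a), p27 (Cdkn1b) and p57 (Cdkn1c) bind cyclin-CDK complexes of several kinds, while the Ink4 members p16 (Cdkn2a), p15 (Cdkn2b), p18 (Cdkn2c) and p19INK4d (Cdkn2d) bind only CDK4 and CDK6. Confluent 3T3-L1 cells re-enter the cycle for a short time after the hormones, in what is called mitotic clonal expansion, before they leave it for good and become adipocytes, and p27 is degraded when they re-enter. 14-3-3 proteins bind phosphorylated partners, p27 and FoxO factors among them.

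Levels are given as FPKM, the authors' fragment numbers scaled to transcript length and to the mapped fragments of the library, so levels of different genes can be set side by side per length. Sums over the listed loci ran between 474548 and 642146 FPKM per library, and without read numbers the counting error behind 1 value cannot be given. No listed locus had all 6 group means under 1.45 FPKM, and none had group means within 1.18 times of each other. The table thus seems to leave out loci that changed little, the shares of called loci below refer to listed loci only, and adjusted p-values may be more lenient than over all expressed genes. Ywhaz, the gene of 14-3-3ζ, averaged 29.5 ± 6.26, 37.6 ± 11.8 and 39.6 ± 11.7 FPKM at 0, 24 and 48 h in si14-3-3ζ cells, against 165.5 ± 12.7, 225.9 ± 8.39 and 259.9 ± 8.24 FPKM in siCon cells (SD, n = 4 each). All 7 fibroblast or pre-adipocyte markers had a row, and their summed level moved with the knockdown. It was 3526 to 4667, 2242 to 2785 and 2197 to 2558 FPKM at 0, 24 and 48 h in si14-3-3ζ libraries, against 6381 to 7086, 3749 to 4787 and 3284 to 3993 FPKM in siCon libraries. Limma called 2, 5 and 3 of the 7 lower and 0, 0 and 2 higher. Of all tested loci, 9.16%, 14.0% and 22.8% were lower and 8.10%, 14.5% and 23.3% higher at the 3 times. The 2 of 7 higher at 48 h lay near that share. All 7 adipocyte markers had a row as well, with sums of 578 to 692, 153 to 243 and 209 to 503 FPKM at the 3 times in si14-3-3ζ libraries, against 1518 to 1801, 398 to 741 and 1400.3 to 4771 FPKM in siCon libraries, and 1, 4 and 7 of them were lower. The 1 of 7 adipocyte markers lower at 0 h lay near the share of all loci. The part of either kind of marker in the differences below was not tested. Of the macrophage markers, 1 of 6 had a row, and the endothelial and epithelial markers were not analysed here. Libraries stood apart by their number. Deviations from the group means were compared between libraries of different groups. The median r was 0.14 over 120 pairs with both numbers odd or both even, and -0.15 over the 120 other pairs. The first set includes pairs of the same number, and deviations from a group mean cancel out within the group. These medians thus cannot tell an odd and even split from likeness of libraries of the same number. The sources used here do not say what a number stands for, so each member's call that changed among the libraries numbered 1 and 3 only, or 2 and 4 only, is given with its value there, a split chosen after the data were seen. In bulk RNA, fewer cells of a kind and less RNA per cell cannot be told apart.

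The positions of the genes are those of GENCODE M1 on the authors' build NCBIM37. Cdkn2a lies at chr4:88920377-88940557 and Cdkn2b at chr4:88952198-88956941, next to each other on the minus strand. Cdkn2c lies on the same chromosome at chr4:109333481-109339794 (minus strand). Cdkn1b lies at chr6:134870419-134875531 (plus strand), Cdkn1a at chr17:29227924-29237667 (plus strand), Cdkn2d at chr9:21092907-21095653 (minus strand) and Cdkn3 at chr14:47380216-47391200 (plus strand). GENCODE M1 has 1 gene named Cdkn2b, and the table gives no positions, so where the second Cdkn2b locus lies is not known. The Cdkn2a locus covers 3 annotated transcripts, and its value cannot be split between p16INK4a and p19ARF, 2 proteins read from different first exons.

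Promoter windows are shown for the pairs of members with the highest r over the 24 libraries below, Cdkn2a with Cdkn2b XLOC_023217 and Cdkn2d with Cdkn3. Those of Cdkn1a, whose r with Cdkn2a was 0.78 (0.85 over deviations from the group means), are not shown. A window is also shown for Cdkn1b, the locus with the smallest limma adjusted p of the knockdown at each time. The windows are RefSeq sequences of build GRCm38.p6, from 250 bases before to 50 bases after an annotated start, written 5′ to 3′ on the gene's strand. Capitals mark each match, on either strand, to 1 of 3 strings. These are the GC box GGGCGG, held by 35.7% of the 32851 windows of this length in the RefSeq table, the box CCAAT, held by 37.4%, and the CHR element TTTGAA, held by 17.9%. The other strings searched on both strands were GACCACCCA for Gli factors (0.253%), GTAAACA for FoxO factors (3.65%), the E-box CACGTG (7.15%), TATAAA for the TATA-binding protein (13.6%), and as a CHR variant TTCGAA (1.56%).
Cdkn1b, chr6:134920151-134920450, plus strand: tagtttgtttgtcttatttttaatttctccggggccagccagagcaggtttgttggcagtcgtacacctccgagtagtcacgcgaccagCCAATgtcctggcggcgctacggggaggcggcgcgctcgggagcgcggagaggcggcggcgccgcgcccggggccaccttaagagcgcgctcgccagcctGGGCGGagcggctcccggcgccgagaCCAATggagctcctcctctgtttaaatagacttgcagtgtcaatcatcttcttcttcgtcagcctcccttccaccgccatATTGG
Cdkn2a, start of p19ARF, chr4:89294570-89294869, minus strand: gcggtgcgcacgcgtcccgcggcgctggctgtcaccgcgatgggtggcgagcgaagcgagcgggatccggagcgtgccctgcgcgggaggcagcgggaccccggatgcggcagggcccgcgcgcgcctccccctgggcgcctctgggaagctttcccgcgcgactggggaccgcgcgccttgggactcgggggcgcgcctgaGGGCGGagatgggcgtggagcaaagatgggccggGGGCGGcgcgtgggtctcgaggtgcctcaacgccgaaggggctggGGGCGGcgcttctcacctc
Cdkn2a, start of p16INK4a, chr4:89282143-89282442, minus strand: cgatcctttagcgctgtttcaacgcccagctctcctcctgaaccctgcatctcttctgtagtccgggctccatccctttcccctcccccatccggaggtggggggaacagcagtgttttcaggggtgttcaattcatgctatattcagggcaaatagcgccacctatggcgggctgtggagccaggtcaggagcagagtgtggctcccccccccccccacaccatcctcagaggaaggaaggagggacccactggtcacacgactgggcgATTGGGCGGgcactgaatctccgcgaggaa
Cdkn2b, chr4:89310983-89311282, minus strand: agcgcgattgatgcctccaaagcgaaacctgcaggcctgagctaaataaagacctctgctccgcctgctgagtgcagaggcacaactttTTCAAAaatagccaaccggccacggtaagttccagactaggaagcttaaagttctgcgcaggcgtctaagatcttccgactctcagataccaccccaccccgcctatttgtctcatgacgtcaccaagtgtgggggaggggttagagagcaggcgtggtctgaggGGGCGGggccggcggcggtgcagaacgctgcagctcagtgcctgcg
Cdkn2d, chr9:21291160-21291459, minus strand: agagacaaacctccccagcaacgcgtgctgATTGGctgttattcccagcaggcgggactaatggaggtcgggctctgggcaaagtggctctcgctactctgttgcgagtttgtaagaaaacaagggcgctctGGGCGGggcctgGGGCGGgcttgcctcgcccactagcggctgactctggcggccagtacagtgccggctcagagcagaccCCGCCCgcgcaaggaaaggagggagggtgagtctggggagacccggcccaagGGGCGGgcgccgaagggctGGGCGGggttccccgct
Cdkn3, chr14:46760291-46760590, plus strand: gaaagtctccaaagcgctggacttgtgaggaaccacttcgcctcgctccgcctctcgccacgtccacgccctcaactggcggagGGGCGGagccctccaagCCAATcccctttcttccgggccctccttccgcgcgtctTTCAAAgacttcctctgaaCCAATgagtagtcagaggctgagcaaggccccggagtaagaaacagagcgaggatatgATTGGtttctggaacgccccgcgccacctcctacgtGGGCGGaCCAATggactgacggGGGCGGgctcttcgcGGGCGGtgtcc

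The Cdkn1b window held 3 CCAAT boxes and 1 GC box. The Cdkn3 window held 4 CCAAT boxes, 4 GC boxes and 1 CHR element, and the Cdkn2d window 1 CCAAT box and 5 GC boxes. The Cdkn2a windows held 3 GC boxes and no CCAAT box at the upstream start, and 1 of each, which share letters, at the downstream start. The Cdkn2b window held 1 GC box and 1 CHR element. Over all 10 windows of the 7 genes, none held the Gli, the FoxO or the TATA-binding protein string or the CHR variant, and 1 window of Cdkn2c held an E-box. A match is a string of letters and not a site, and the lack of one says only that these letters are not in this window. The Gli string is rare among all windows (0.253%), so its lack here says little about Gli factors. The paper identified Gli motifs in a Cdkn1b promoter region whose positions were not matched to this window.

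Knockdown was compared within each time in a limma fit of log2(FPKM + 1) over all 6 groups, and a locus was called at a Benjamini-Hochberg adjusted p under 0.05 over the 9251 tested loci. At 0 h, 3 of the 8 loci were higher in si14-3-3ζ cells (Cdkn1a, Cdkn1b and Cdkn2c; of all loci, 8.10% were) and 2 were lower (both Cdkn2b loci; of all loci, 9.16%). At 24 h, 4 were higher (Cdkn1a, Cdkn1b, Cdkn2c and Cdkn3; 14.5% of all loci) and none was lower (14.0%). At 48 h, 4 were higher (Cdkn1a, Cdkn1b, Cdkn2a and Cdkn2b XLOC_023217; 23.3%) and none was lower (22.8%). The median log2 difference of the 8 loci was 0.24, 0.40 and 0.49 at 0, 24 and 48 h, against 0.01, 0.02 and 0.01 over all tested loci. The libraries of both kinds of cells did not overlap for 3, 4 and 4 of the 8 loci at the 3 times, nor for 22.1%, 29.4% and 36.7% of all tested loci. These loci reached p = 0.0286 in exact 2-sided permutation tests on FPKM, the smallest p that 4 libraries against 4 allow.

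**Figure D1:**
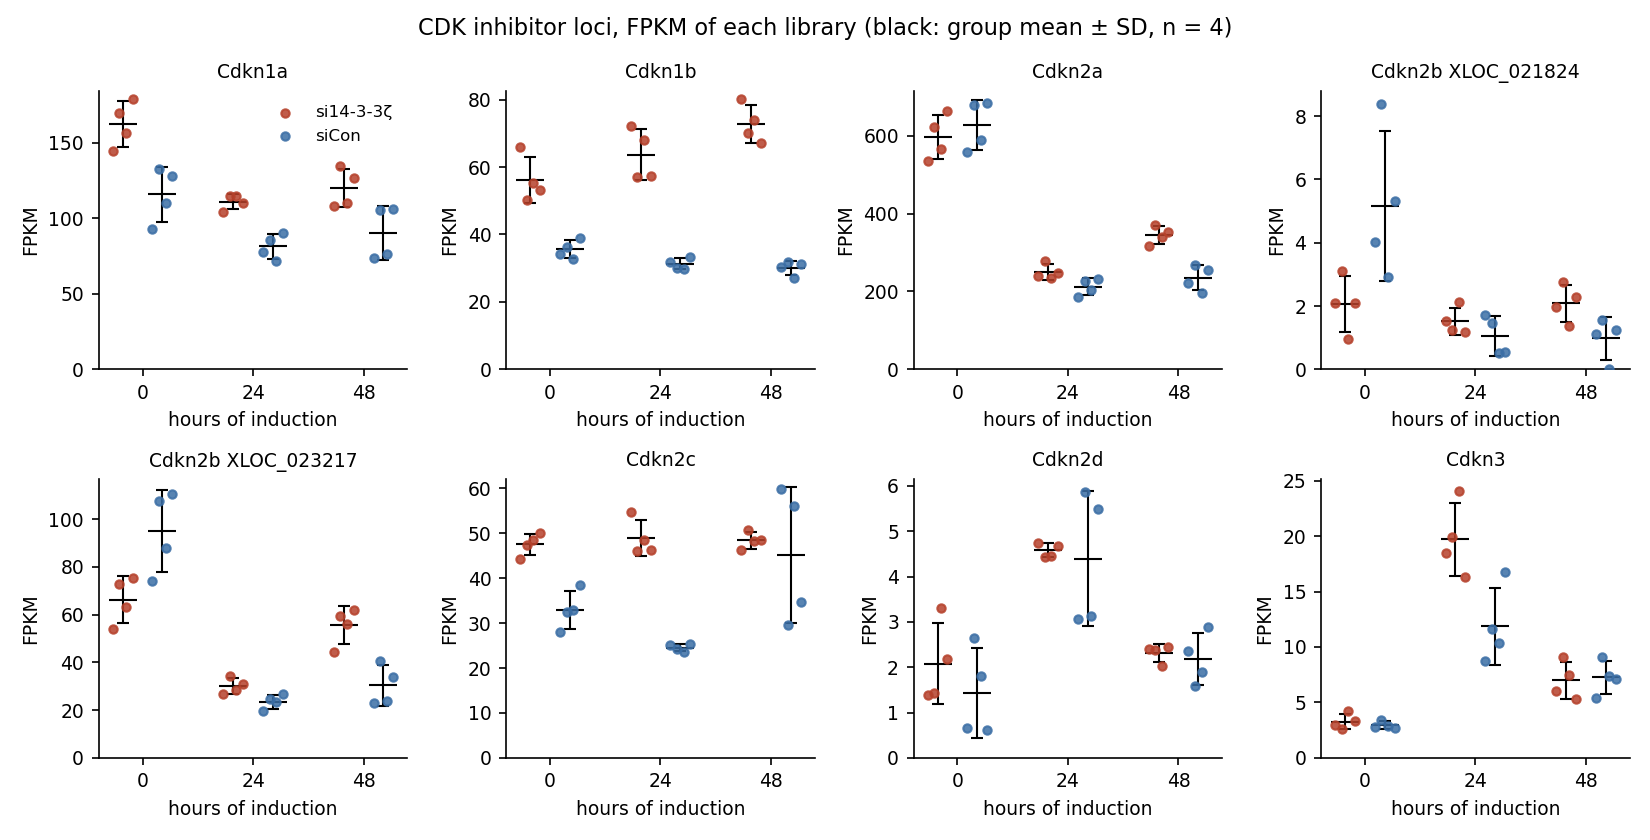
FPKM of each of the 24 libraries for the 8 CDK inhibitor loci, by hours of induction (x axis), with si14-3-3ζ libraries in red to the left of siCon libraries in blue and the group mean ± SD in black (n = 4). Cdkn1b sat between 50.3 and 80.0 FPKM in si14-3-3ζ cells and between 27 and 39.1 FPKM in siCon cells, and Cdkn2c of siCon cells split into 2 pairs of libraries at 48 h.

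Cdkn1b encodes p27, which binds cyclin E-CDK2 and is the inhibitor best known for quiescence. It was higher in si14-3-3ζ cells at each time, before induction included. At 0 h the si14-3-3ζ libraries numbered 1 to 4 had 66.1, 50.3, 55.2 and 53.2 FPKM, against 34.3, 36.3, 32.8 and 39.1 FPKM in siCon cells. At 24 h they had 72.2, 57.0, 68.0 and 57.4 FPKM, against 31.9, 30.0, 29.9 and 33.5 FPKM. At 48 h they had 80.0, 70, 73.9 and 67.0 FPKM, against 30.3, 31.8, 27 and 31.3 FPKM. The lowest si14-3-3ζ library of any time lay above the highest siCon library of any time. The mean level was 1.58, 2.03 and 2.42 times that of siCon cells at 0, 24 and 48 h. On the log2 scale the difference was 0.64 (95% interval 0.45 to 0.83, limma adjusted p = 6.6e-05), 0.99 (0.80 to 1.18, adjusted p = 1.2e-07) and 1.24 (1.05 to 1.43, adjusted p = 2.0e-09). These 3 calls held under every alternative run, with log2 differences of 0.45 to 0.83, 0.83 to 1.16 and 1.09 to 1.39 over the other settings, leaving out single libraries aside.

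Over induction, Cdkn1b moved in opposite directions in the kinds of cells. In si14-3-3ζ cells it was higher at 48 h than at 0 h (log2 0.37, limma adjusted p = 0.00164), and neither step was called alone (0.18, adjusted p = 0.0987, at 0 to 24 h and 0.19, adjusted p = 0.143, at 24 to 48 h). In siCon cells it was lower at 48 h than at 0 h (-0.23, adjusted p = 0.0276), a small change that was not called without siCon 0 h replicate 2 (-0.23, adjusted p = 0.056) or 4 (-0.19, adjusted p = 0.0934), without siCon 48 h replicate 3 (-0.19, adjusted p = 0.0984), among the libraries numbered 1 and 3 only (-0.22, adjusted p = 0.121), nor after median-ratio scaling (adjusted p = 0.0629) or quantile normalization (adjusted p = 0.083). The first step in si14-3-3ζ cells was called without si14-3-3ζ 0 h replicate 1 (0.26, adjusted p = 0.0201), the highest library of its group. Among the libraries numbered 2 and 4 only, the second step in si14-3-3ζ cells was called (0.26, adjusted p = 0.0243), and so was a lower level at 24 than at 0 h in siCon cells (-0.24, adjusted p = 0.0145). The difference between the responses over 48 h was 0.61 (0.34 to 0.88, adjusted p = 0.00296).

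Cdkn1a encodes p21, a target of p53 that also binds PCNA. It was higher in si14-3-3ζ cells at each time. The si14-3-3ζ libraries at 0 h had 144, 169, 156 and 179 FPKM, against 93.0, 132, 109.9 and 128 FPKM in siCon cells. At 24 h they had 104, 115, 115 and 109.8 FPKM, against 77.6, 85.9, 71.5 and 90.0 FPKM. The 48 h libraries had 108, 134, 110.1 and 127 FPKM, against 73.7, 105, 76.3 and 106 FPKM. No group overlapped its partner at the same time, though at 48 h the si14-3-3ζ libraries numbered 1 and 3 lay just above the siCon libraries numbered 2 and 4. The log2 differences were 0.49 (0.24 to 0.75, limma adjusted p = 0.00803), 0.45 (0.19 to 0.70, adjusted p = 0.00903) and 0.42 (0.17 to 0.67, adjusted p = 0.00806), and all 3 calls held under every alternative run. Both kinds of cells had less Cdkn1a at 24 h than at 0 h, by -0.54 in the si14-3-3ζ group (adjusted p = 6.4e-04) and by -0.50 in siCon cells (adjusted p = 0.00127), and the difference between these responses was -0.05 (-0.41 to 0.31, adjusted p = 0.957). The step to 48 h was not called in either (0.11, adjusted p = 0.594, in si14-3-3ζ cells and 0.13, adjusted p = 0.433, in siCon cells). Among the libraries numbered 2 and 4 only, both of these later steps were called (0.21, adjusted p = 0.0176, and 0.26, adjusted p = 0.00606). At 48 h it was still lower than at 0 h in si14-3-3ζ cells (-0.44, adjusted p = 0.00467) and in siCon cells (-0.36, adjusted p = 0.0121). The call in siCon cells was lost without siCon 0 h replicate 2 (-0.29, adjusted p = 0.0514), siCon 48 h replicate 1 (-0.27, adjusted p = 0.0597) or siCon 48 h replicate 3 (-0.29, adjusted p = 0.0534), and in a fit of only the groups compared (adjusted p = 0.0589).

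**Figure D2:**
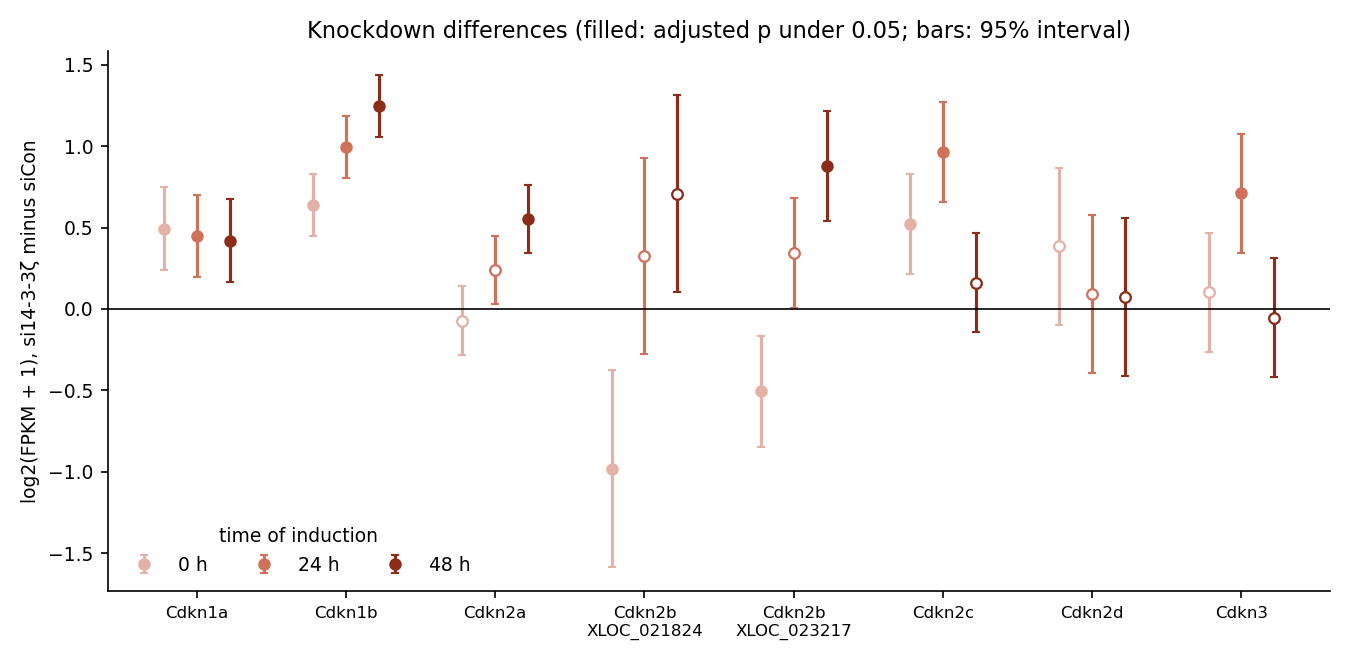
Log2 difference of each CDK inhibitor locus between si14-3-3ζ and siCon cells (y axis, log2(FPKM + 1), si14-3-3ζ minus siCon) at 0, 24 and 48 h, with 95% intervals of limma. Filled points have an adjusted p under 0.05. Cdkn1b stood at 0.64, 0.99 and 1.24, while Cdkn2b XLOC_023217 stood at -0.51, 0.34 and 0.88.

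Cdkn2a, the gene of p16INK4a and p19ARF, a pair of brakes that act through RB and p53, had the highest level of all members in every group. Before induction the si14-3-3ζ libraries had 535, 621, 567 and 664 FPKM, against 557, 679, 589 and 683 FPKM in siCon cells. At 24 h they had 240.3, 278, 234 and 248 FPKM, against 186, 227, 203 and 232 FPKM. At the end they had 316, 370.5, 339.7 and 351 FPKM, against 223, 268, 196 and 256 FPKM. The groups overlapped at 0 h, were barely apart at 24 h and were well apart at 48 h. The log2 difference was -0.07 (-0.28 to 0.14, limma adjusted p = 0.677) at 0 h, or 0.15 (adjusted p = 0.214) after quantile normalization, and 0.24 (0.03 to 0.45, adjusted p = 0.0796) at 24 h. At 48 h it was 0.55 (0.35 to 0.76, adjusted p = 1.4e-04), a call that held under every alternative run. The 24 h value was called with the library number as a block (adjusted p = 0.00147), and the numbers were taken to pair the libraries of that comparison. Quantile normalization also called it (0.39, adjusted p = 0.0011).

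Cdkn2a was lower after induction in both kinds of cells. At 24 h it stood lower than at 0 h by -1.25 in the si14-3-3ζ group (limma adjusted p = 4.2e-10) and by -1.56 in siCon cells (adjusted p = 7.4e-12), which left 250.1 ± 19.5 and 212 ± 21.4 FPKM (SD, n = 4 each). Between 24 and 48 h it was higher by 0.46 in si14-3-3ζ cells (adjusted p = 0.0019), while siCon cells had 0.15 (adjusted p = 0.287, 0.0325 with the library number as a block, and 0.0391 among the libraries numbered 2 and 4 only). Over 48 h it was lower by -0.79 in si14-3-3ζ cells (adjusted p = 8.7e-07) and by -1.41 in siCon cells (adjusted p = 3.9e-11), and these responses differed by 0.63 (0.33 to 0.92, adjusted p = 0.00462).

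Cdkn2b encodes p15, an inhibitor of CDK4 and CDK6 that TGF-β raises in many cells. Its locus XLOC_023217 carried nearly all of the Cdkn2b level. In the 0 h libraries si14-3-3ζ cells had 54.0, 72.8, 63.1 and 75.2 FPKM, against 74, 108, 87.9 and 110.4 FPKM in siCon cells. At 24 h they had 26.6, 34.4, 28.3 and 31.1 FPKM, against 19.6, 24.5, 23.4 and 26.6 FPKM. Later, at 48 h, they had 44.2, 59.6, 56.1 and 62.1 FPKM, against 22.8, 40.8, 23.9 and 34 FPKM. The libraries of both kinds overlapped at 0 and 24 h and were apart at 48 h. It was lower in si14-3-3ζ cells at 0 h (-0.51, -0.85 to -0.17, limma adjusted p = 0.0366) and higher at 48 h (0.88, 0.54 to 1.22, adjusted p = 1.8e-04). The value at 24 h was 0.34 (0.00 to 0.68, adjusted p = 0.123), and it was called with the library number as a block (adjusted p = 0.00238), in a fit of only the groups compared (adjusted p = 0.047) and among the libraries numbered 2 and 4 only (adjusted p = 0.0229). The call at 0 h was lost without si14-3-3ζ 0 h replicate 1 (-0.41, adjusted p = 0.115) or 3 (-0.49, adjusted p = 0.0881), without siCon 0 h replicate 2 (-0.44, adjusted p = 0.101), 3 (-0.54, adjusted p = 0.0511) or 4 (-0.43, adjusted p = 0.11), and among the libraries numbered 1 and 3 only (-0.46, adjusted p = 0.0863). The call at 48 h held under every alternative run.

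The level of Cdkn2b XLOC_023217 fell by 1.11 in the si14-3-3ζ group (limma adjusted p = 4.5e-06) and by 1.96 in siCon cells (adjusted p = 5.9e-10) between 0 and 24 h, on the log2 scale. Between 24 and 48 h it rose by 0.86 in si14-3-3ζ cells (adjusted p = 5.2e-04), while siCon cells had 0.32 (adjusted p = 0.143, and 0.00339 with the library number as a block). Among the libraries numbered 2 and 4 only, the siCon value was 0.53 (adjusted p = 0.00133). Over 48 h, si14-3-3ζ cells had -0.25 (adjusted p = 0.195, and 0.0224 among the libraries numbered 2 and 4 only), and siCon cells were lower by -1.64 (adjusted p = 1.0e-08). The responses over 48 h differed by 1.38 (0.90 to 1.86, adjusted p = 3.7e-04).

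Cdkn2b XLOC_021824 was a locus of low level, between 0 and 8.39 FPKM over the 24 libraries, and was listed at 0 in siCon 48 h replicate 3. At 0 h the si14-3-3ζ libraries had 2.09, 3.11, 0.957 and 2.10 FPKM, against 4.03, 8.39, 2.92 and 5.31 FPKM in siCon cells. At 24 h all values lay between 1.17 and 2.12 FPKM in si14-3-3ζ cells and between 0.50 and 1.73 FPKM in siCon cells. At 48 h they lay between 1.36 and 2.74 FPKM in si14-3-3ζ cells and between 0 and 1.56 FPKM in siCon cells. The log2 difference was -0.98 at 0 h (-1.58 to -0.38, limma adjusted p = 0.023), 0.33 at 24 h (adjusted p = 0.427) and 0.71 at 48 h (0.11 to 1.31, adjusted p = 0.0503). The call at 0 h was lost without si14-3-3ζ 0 h replicate 3 (-0.78, adjusted p = 0.0978), siCon 0 h replicate 2 (-0.75, adjusted p = 0.0905) or siCon 0 h replicate 4 (-0.94, adjusted p = 0.055), with a pseudocount of 0.1 (-1.28, adjusted p = 0.162) and among the libraries numbered 1 and 3 only (-0.85, adjusted p = 0.208). The value at 48 h, just outside the threshold, was called with 1 library left out in 9 cases (log2 0.71 to 0.86, adjusted p = 0.0271 to 0.0492). These were si14-3-3ζ 0 h replicates 2 and 3, si14-3-3ζ 48 h replicate 3, siCon 0 h replicates 2 and 3, siCon 24 h replicates 1 and 3, and siCon 48 h replicates 2 and 4. It was also called with a pseudocount of 0.1 (1.56, adjusted p = 0.0424). In siCon cells it was lower at 24 h than at 0 h by -1.56 (adjusted p = 7.4e-05), while si14-3-3ζ cells had -0.25 (adjusted p = 0.471), with -0.69 (adjusted p = 0.0366) among the libraries numbered 2 and 4 only. The responses over 48 h differed by 1.69 (0.84 to 2.54, adjusted p = 0.00714, and 0.0754 among the libraries numbered 1 and 3 only). At this low level the log2 scale with a pseudocount of 1 understates the ratio.

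Cdkn2c encodes p18, an Ink4 inhibitor whose loss in mice gives large organs. At 0 h the si14-3-3ζ libraries had 44.3, 47.4, 48.5 and 49.95 FPKM, at 24 h 54.7, 46.1, 48.4 and 46.3 FPKM and at 48 h 46.3, 50.8, 48.2 and 48.4 FPKM. They averaged 47.5 ± 2.39, 48.9 ± 4.04 and 48.4 ± 1.84 FPKM at the 3 times (SD, n = 4 each). In siCon cells it was 28.1, 32.5, 32.8 and 38.4 FPKM at 0 h and 25.2, 24.1, 23.5 and 25.2 FPKM at 24 h. At 48 h the siCon libraries numbered 1 to 4 had 60, 29.7, 56.1 and 34.7 FPKM. The 48 h siCon libraries thus fell into 2 pairs, numbers 1 and 3 above every si14-3-3ζ library of that time and numbers 2 and 4 below every one. Knockdown cells had more Cdkn2c at 0 h (0.52, 0.22 to 0.83, limma adjusted p = 0.0173) and at 24 h (0.96, 0.66 to 1.27, adjusted p = 5.0e-05), with no overlap of libraries. At 48 h the difference was 0.16 (-0.14 to 0.47, adjusted p = 0.384). It was -0.29 (adjusted p = 0.0664) among the libraries numbered 1 and 3 and 0.61 (adjusted p = 8.4e-04) among those numbered 2 and 4. The call at 0 h was lost without siCon 0 h replicate 1 (0.45, adjusted p = 0.0571).

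The rise of Cdkn2c in siCon cells from 24 to 48 h, 0.79 (0.49 to 1.10, limma adjusted p = 3.0e-04), was called under every alternative run. Its size was less stable, with 0.37 to 1.22 over the other settings, leaving out single libraries aside. The rise followed a fall of -0.40 from 0 to 24 h (adjusted p = 0.0209, and 0.0757 without siCon 0 h replicate 4). si14-3-3ζ cells had 0.04 (adjusted p = 0.838) and -0.01 (adjusted p = 0.972) over the same steps. The responses from 24 to 48 h differed by -0.80 (-1.24 to -0.37, adjusted p = 0.0193), and by -0.27 (adjusted p = 0.295) among the libraries numbered 2 and 4 only. Over 48 h the siCon value was 0.39 (adjusted p = 0.0234). That call was lost without siCon 0 h replicate 1 (0.32, adjusted p = 0.0799), siCon 48 h replicate 1 (0.23, adjusted p = 0.135) or siCon 48 h replicate 3 (0.27, adjusted p = 0.117) and in a fit of only the groups compared (adjusted p = 0.128), and the libraries numbered 2 and 4 alone gave -0.13 (adjusted p = 0.238). The responses over 48 h differed by -0.36 (adjusted p = 0.242), by -0.54 (adjusted p = 0.0329) without siCon 48 h replicate 2 and by -0.88 (adjusted p = 0.00902) among the libraries numbered 1 and 3.

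Adipocyte markers split the siCon libraries at 48 h in the same way. Fabp4, a fatty acid carrier of adipocytes, had 128, 230.0, 228 and 289 FPKM in si14-3-3ζ libraries 1 to 4, against 2790, 941, 3701 and 1259 FPKM in siCon libraries 1 to 4. Unlike Cdkn2c, Fabp4 was higher in every siCon library than in any si14-3-3ζ library. Adipoq, the gene of adiponectin, had 0.216, 3.33, 3.22 and 5.42 FPKM, against 31.1, 4.84, 38.2 and 12.7 FPKM. The split was weaker for the marker Cidec, with 59.9, 29.8, 100.3 and 52.3 FPKM in siCon libraries 1 to 4. Summed over the 7 adipocyte markers, the 48 h libraries ranged between 209 and 503 FPKM in si14-3-3ζ cells and between 1400.3 and 4771 FPKM in siCon cells. Before induction, siCon cells already had marker sums of 1518 to 1801 FPKM, above the lowest siCon sum at 48 h. The part of adipocyte content in the Cdkn2c level was not tested.

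**Figure D3:**
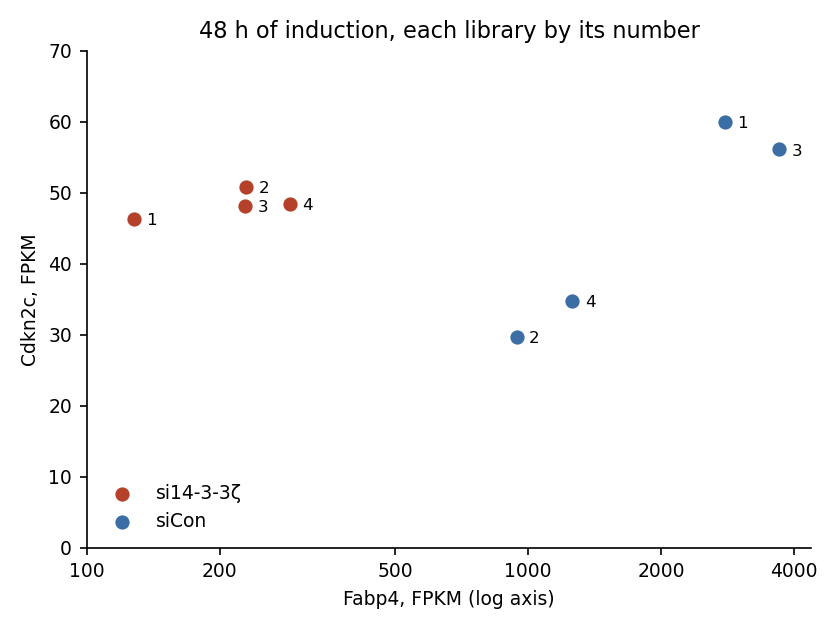
Cdkn2c (y axis, FPKM) against the adipocyte gene Fabp4 (x axis, FPKM, log axis) in the 8 libraries at 48 h, si14-3-3ζ in red and siCon in blue, each point marked with its library number. The siCon libraries numbered 1 and 3 had the highest values of both genes, and si14-3-3ζ libraries had 46.3 to 50.8 FPKM of Cdkn2c with at most 289 FPKM of Fabp4.

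Cdkn2d encodes p19INK4d, an inhibitor whose level moves with the cell cycle. It was the inhibitor of lowest level beside the second Cdkn2b locus, between 0.608 and 5.86 FPKM. The 4 si14-3-3ζ libraries of 0 h had 1.38, 1.43, 3.30 and 2.18 FPKM, against 0.658, 2.66, 1.80 and 0.608 FPKM in siCon cells. At 24 h they had 4.75, 4.44, 4.45 and 4.67 FPKM, against 3.07, 5.86, 3.14 and 5.49 FPKM. By 48 h they had 2.41, 2.38, 2.02 and 2.45 FPKM, against 2.36, 1.59, 1.90 and 2.89 FPKM. The groups overlapped at each time, with log2 differences of 0.39 (-0.10 to 0.87), 0.09 (-0.39 to 0.57) and 0.07 (-0.41 to 0.56) and limma adjusted p of 0.27, 0.798 and 0.818. It was higher at 24 h than at 0 h by 0.90 in si14-3-3ζ cells (adjusted p = 0.00208) and by 1.20 in siCon cells (adjusted p = 1.2e-04). After 24 h it was lower again, by -0.75 in si14-3-3ζ cells (adjusted p = 0.0231) and by -0.73 in siCon cells (adjusted p = 0.0196). The si14-3-3ζ call was lost without si14-3-3ζ 48 h replicate 3 (-0.71, adjusted p = 0.0568), with a pseudocount of 0.1 (-0.96, adjusted p = 0.0527), among the libraries numbered 1 and 3 (-0.80, adjusted p = 0.145) and among those numbered 2 and 4 (-0.70, adjusted p = 0.133). The siCon call was lost without siCon 24 h replicate 2 (-0.60, adjusted p = 0.0775), siCon 24 h replicate 4 (-0.63, adjusted p = 0.0665) or siCon 48 h replicate 2 (-0.64, adjusted p = 0.0575), and among the libraries numbered 1 and 3 only (-0.40, adjusted p = 0.408). Over 48 h neither was called, with 0.15 (adjusted p = 0.597) in si14-3-3ζ cells and 0.46 (adjusted p = 0.0821) in siCon cells. The siCon value was called without siCon 0 h replicate 2 (0.69, adjusted p = 0.0102), after quantile normalization (0.76, adjusted p = 0.0086) and with a pseudocount of 0.1 (0.79, adjusted p = 0.0492).

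Cdkn3 encodes a phosphatase that takes an activating phosphate off CDKs, and its transcript is known from dividing cells. Uninduced si14-3-3ζ libraries had 2.99, 2.60, 4.2 and 3.32 FPKM, against 2.82, 3.44, 2.84 and 2.71 FPKM in siCon cells. At 24 h they had 18.5, 20.0, 24.1 and 16.3 FPKM, against 8.73, 11.6, 10.4 and 16.8 FPKM. At 48 h they had 6.03, 9.08, 7.49 and 5.33 FPKM, against 5.43, 9.08, 7.42 and 7.07 FPKM. It peaked at 24 h in both kinds of cells, higher in si14-3-3ζ cells, where only the lowest library lay under the highest siCon library. The log2 difference at 24 h was 0.71 (0.34 to 1.07, limma adjusted p = 0.00448), and 0.35 (adjusted p = 0.339) among the libraries numbered 2 and 4 only. At 0 and 48 h it was 0.10 (adjusted p = 0.735) and -0.05 (adjusted p = 0.826). From 0 to 24 h Cdkn3 rose by 2.28 in si14-3-3ζ cells (adjusted p = 1.9e-10) and by 1.67 in siCon cells (adjusted p = 2.4e-08). Between 24 and 48 h it fell by 1.39 (adjusted p = 4.1e-06) in si14-3-3ζ cells and by 0.62 in siCon cells (adjusted p = 0.00956). The siCon call was lost without siCon 24 h replicate 4 (-0.46, adjusted p = 0.0501) and among the libraries numbered 1 and 3 only (-0.52, adjusted p = 0.11). The responses of this second step differed by -0.76 (-1.28 to -0.25, adjusted p = 0.0573). That difference was called without si14-3-3ζ 48 h replicate 2 (-0.88, adjusted p = 0.0328), siCon 24 h replicate 4 (-0.93, adjusted p = 0.0168) or siCon 48 h replicate 1 (-0.88, adjusted p = 0.039), after median-ratio scaling (adjusted p = 0.0454) and after quantile normalization (adjusted p = 0.0431). At 48 h Cdkn3 stayed above 0 h by 0.89 in si14-3-3ζ cells (adjusted p = 1.9e-04) and by 1.05 in siCon cells (adjusted p = 1.8e-05).

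Counted over all members, the first 24 h of induction changed 5 of 8 loci in si14-3-3ζ cells, 2 higher (Cdkn2d and Cdkn3; 28.3% of all loci were higher) and 3 lower (Cdkn1a, Cdkn2a and Cdkn2b XLOC_023217; 31.9%). In siCon cells it changed 7 of 8, 2 higher (Cdkn2d and Cdkn3; 30.8%) and 5 lower (Cdkn1a, Cdkn2a, both Cdkn2b loci and Cdkn2c; 33.4%). In the next 24 h, 2 loci were higher in si14-3-3ζ cells (Cdkn2a and Cdkn2b XLOC_023217; 9.18% of all loci) and 2 lower (Cdkn2d and Cdkn3; 12.8%). In siCon cells 1 was higher (Cdkn2c; 13.3%) and 2 were lower (Cdkn2d and Cdkn3; 17.4%), and 5 loci in all were called with the library number as a block, a fit that called 41.5% of all loci. Over 48 h, 2 were higher in si14-3-3ζ cells (Cdkn1b and Cdkn3; 26.5%) and 2 lower (Cdkn1a and Cdkn2a; 29.7%). In siCon cells 2 were higher (Cdkn2c and Cdkn3; 33.9%) and 5 lower (Cdkn1a, Cdkn1b, Cdkn2a and both Cdkn2b loci; 35.7%). In si14-3-3ζ cells the counts of the first 24 h and of the whole 48 h lay near the shares of all loci. So did the counts higher in siCon cells over each span, and these counts say little about the members as a set. The median log2 change of the 8 loci was -0.11, 0.15 and 0.03 over the 3 spans in si14-3-3ζ cells and -0.45, 0.04 and -0.30 in siCon cells, against -0.02, -0.00 and -0.00 and -0.03, -0.02 and -0.02 over all tested loci. The steps of 1 kind of cell share their libraries, so they are not independent of each other.

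**Figure D4:**
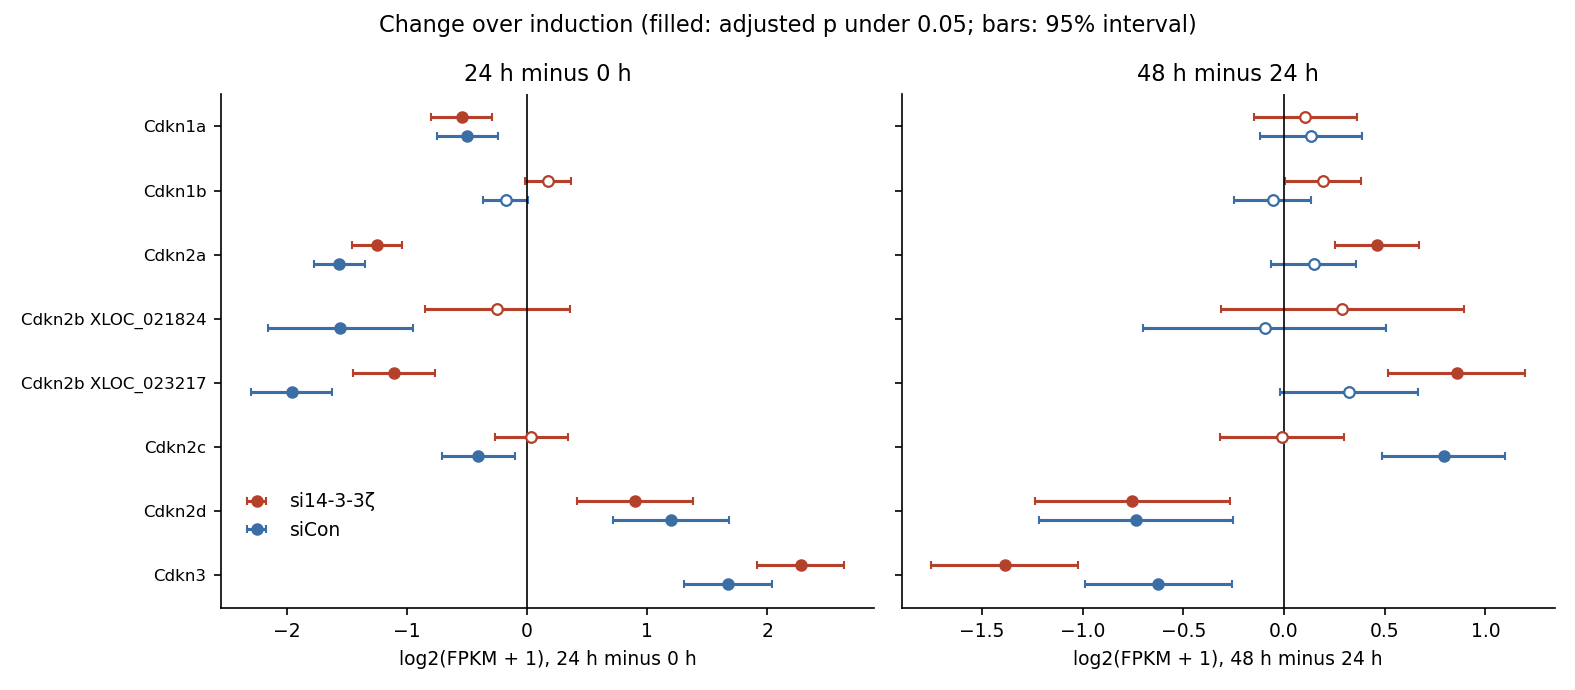
Change of each CDK inhibitor locus from 0 to 24 h (left) and from 24 to 48 h (right) of induction on the log2(FPKM + 1) scale (x axes), si14-3-3ζ cells in red above siCon cells in blue, with 95% intervals of limma. Filled points have an adjusted p under 0.05. Cdkn2a and Cdkn2b XLOC_023217 lay left of 0 in the first step, and Cdkn2d and Cdkn3 lay right of 0 in the first step and left of it in the second.

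The difference between the responses of the kinds of cells was tested as an interaction. From 0 to 24 h limma called none of the 8 loci (1.43% of all loci were called), and 6 had an unadjusted p under 0.05, as had 12.6% of all loci. Cdkn2b XLOC_023217 led them (0.85, adjusted p = 0.0671). It was called without siCon 0 h replicate 1 (0.96, adjusted p = 0.0363) or siCon 48 h replicate 2 (adjusted p = 0.04), after median-ratio scaling (adjusted p = 0.0462), in a fit of only the groups compared (adjusted p = 0.0314) and among the libraries numbered 2 and 4 only (0.90, adjusted p = 0.00904). From 24 to 48 h it called 1, Cdkn2c, with -0.01 after the knockdown and 0.79 in siCon cells (8.71% of all loci). Cdkn2b XLOC_023217 had 0.53 for this step (adjusted p = 0.161, and 0.0419 without siCon 48 h replicate 2). Over 48 h it called 4, Cdkn1b, Cdkn2a and both Cdkn2b loci (17.9% of all loci), and all 4 differences were positive. Cdkn1a, Cdkn2d and Cdkn3 had differences of -0.07 (-0.43 to 0.29), -0.31 (-0.99 to 0.37) and -0.16 (-0.67 to 0.36) over 48 h, with adjusted p of 0.815, 0.555 and 0.715.

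The makeup of the inhibitor transcripts was followed as the share of each locus in their summed FPKM, leaving out Cdkn3, which is a phosphatase. The Cdkn2a locus also counts p19ARF, which acts through p53 and cannot be split off here, so every share depends on its unknown part. The sum was 933 ± 78.7, 509.6 ± 17.6 and 645 ± 38.9 FPKM at 0, 24 and 48 h in si14-3-3ζ cells, against 913 ± 106, 378 ± 33.1 and 435 ± 45.3 FPKM in siCon cells (SD, n = 4 each). Cdkn2a made up 63.9%, 49.0% and 53.4% in si14-3-3ζ cells, against 68.8%, 56.0% and 54.1% in siCon cells. Cdkn1b made up 6.09%, 12.5% and 11.3%, against 3.92%, 8.33% and 6.95%. In siCon cells Cdkn1b itself averaged 35.6, 31.3 and 30.1 FPKM, so its higher share after 0 h came with a lower sum and not with more Cdkn1b. The ratio of Cdkn1b to Cdkn2a was 0.0955, 0.257 and 0.213 in si14-3-3ζ cells, against 0.0570, 0.149 and 0.129 in siCon cells, and its libraries did not overlap at any time. Cdkn2a was followed by Cdkn1a in every group. At 48 h the next in si14-3-3ζ cells were Cdkn1b (67.0 to 80.0 FPKM), Cdkn2b XLOC_023217 (44.2 to 62.1 FPKM) and Cdkn2c (46.3 to 50.8 FPKM), of which the last 2 overlapped. In siCon cells the next were Cdkn2c (29.7 to 60 FPKM), Cdkn2b XLOC_023217 (22.8 to 40.8 FPKM) and Cdkn1b (27 to 31.8 FPKM), which all overlapped.

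**Figure D5:**
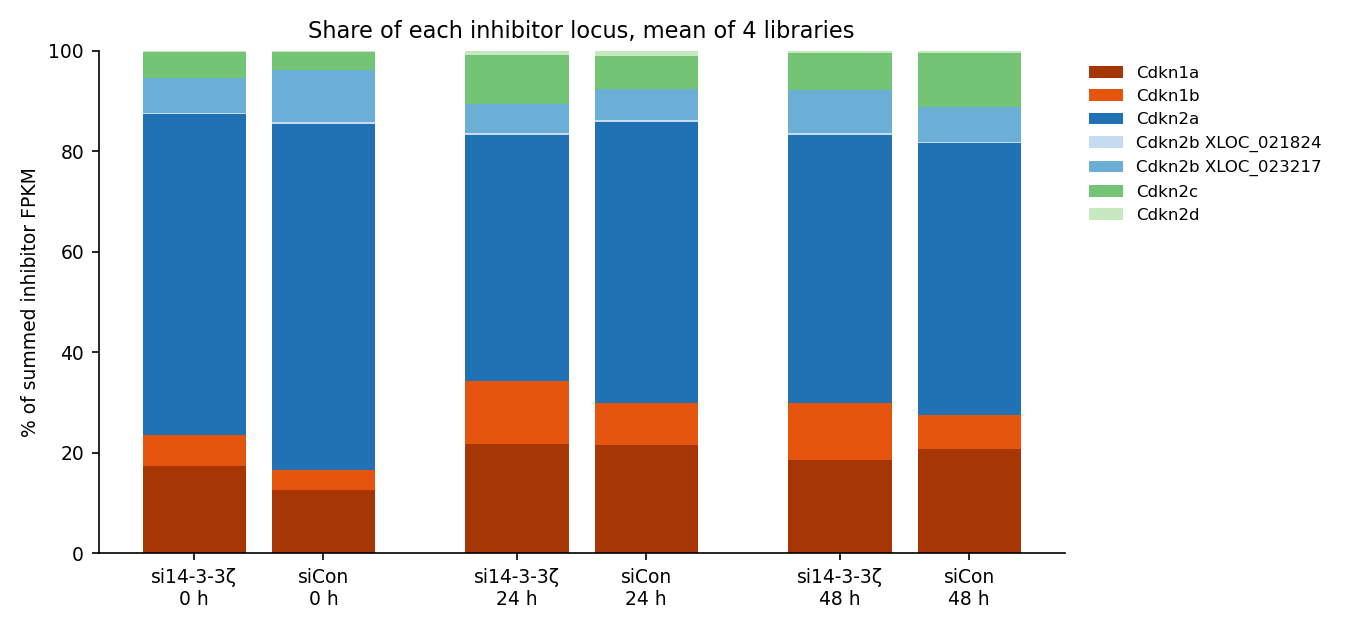
Mean share of each CDK inhibitor locus (Cdkn3 left out) in the summed inhibitor FPKM (y axis, %) of si14-3-3ζ and siCon cells at 0, 24 and 48 h, 4 libraries each. Cdkn2a, in dark blue and with p19ARF included, took 63.9% and 68.8% at 0 h in si14-3-3ζ and siCon cells.

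Members were also set beside each other over the 24 libraries, as a description, since the libraries share their groups. Cdkn2a and its neighbour Cdkn2b XLOC_023217 went together most closely (r = 0.95 on log2(FPKM + 1), and 0.91 over deviations from the group means), and Cdkn1a went with both (0.78 and 0.73, and 0.85 and 0.89 over deviations). Cdkn2d and Cdkn3 had r = 0.80 (0.36 over deviations). Cdkn1b and Cdkn2a had r = 0.20 (-0.06 over deviations). Cdkn2a and Cdkn3 had r = -0.79, with 0.36 over deviations, so that they ran against each other between groups only. Among all named loci, the patterns nearest to Cdkn1b were those of Commd3 (0.94), Arl2bp (0.94) and Rab11fip3 (0.92), and those nearest to Cdkn1a were Foxo4 (0.93), Tmem66 (0.93) and Hmgn3 (0.93). Those nearest to Cdkn2a were Mxra8 (0.99), Itm2b (0.98) and Gstm2 (0.98), and those nearest to Cdkn2b XLOC_023217 were Mxra8 (0.97), Gpc4 (0.96) and Calcoco1 (0.96). Cdkn2b XLOC_021824 had no pattern nearer than Slc37a3 (0.83), Lpcat2 (0.83) and Sspn (0.81). Those nearest to Cdkn2c were Sufu (0.80), Klf9 (0.78) and Ppm1k (0.78), those to Cdkn2d Pak4 (0.90), Terf1 (0.86) and Tubb4b (0.85), and those to Cdkn3 Nde1 (0.98), Iqgap3 (0.96) and Tubb4b (0.96).

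The kinases and cyclins that the inhibitors bind were tested in the same fit. Of 8 G1 cyclins and kinases, 1 was higher at each of the 3 times in si14-3-3ζ cells and 1, 3 and 3 were lower, with median log2 differences of -0.08, -0.24 and -0.23. Of all tested loci, 8.10%, 14.5% and 23.3% were higher and 9.16%, 14.0% and 22.8% lower at the 3 times, with medians of 0.01, 0.02 and 0.01. The gene higher at each time was Cdk6, an Ink4 target (0.38, 0.53 and 1.08, limma adjusted p = 0.0388, 0.00356 and 9.7e-07). Ccnd1, the gene of cyclin D1, was lower at 0 h (-0.60, adjusted p = 0.0065) and 24 h (-0.64, adjusted p = 0.00219), with 0.24 at 48 h (adjusted p = 0.185). Ccne2 was lower at 24 h (-0.66, adjusted p = 0.028), and Ccne1, whose product p27 binds with CDK2, at 24 h (-0.40, adjusted p = 0.0472) and 48 h (-0.72, adjusted p = 5.3e-04). Ccnd3 (-0.43, adjusted p = 0.00221) and Cdk2 (-0.35, adjusted p = 0.0199) were lower at 48 h. Cdk4 had 0.17, 0.04 and 0.16 and Ccnd2 -0.05, -0.33 and -0.18, none called.

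Genes that act after the kinases, in S phase and mitosis, were followed beside Cdkn3. All 14 tested S phase genes and all 16 mitosis genes were higher at 24 h than at 0 h in both kinds of cells, with median log2 changes of 1.5 and 2.65 in si14-3-3ζ cells and 1.88 and 2.70 in siCon cells, while of all loci 28.3% were higher after the knockdown and 30.8% in siCon cells. At 48 h, 14 of 14 S phase genes were lower in si14-3-3ζ than in siCon cells, among them Ccna2 (-0.53, limma adjusted p = 0.00111), Tyms (-0.88, adjusted p = 5.7e-07) and Mcm5 (-0.90, adjusted p = 3.6e-06), and 10 of 16 mitosis genes, among them Bub1b (-0.75, adjusted p = 8.4e-06), Cdc20 (-0.48, adjusted p = 8.0e-04) and Kif11 (-0.33, adjusted p = 0.0338), against 22.8% of all loci. Cdkn3 was not among the genes lower at that time. At 0 h, 4 of 14 S phase genes and 7 of 16 mitosis genes were higher (8.10% of all loci) and none lower. At 24 h 2 of the 14 S phase genes were lower, a share near that of all loci (14.0%), and 4 of the 16 mitosis genes higher (14.5% of all loci). The median log2 difference was 0.21, -0.10 and -0.47 over the S phase genes and 0.34, 0.18 and -0.45 over the mitosis genes at the 3 times. Of 12 pocket protein and E2F genes, none was called at 0 h and 1 was lower at 24 h (E2f2, -0.40, adjusted p = 0.00753), near the share of all loci (14.0%). At 48 h, 5 were lower (22.8% of all loci), among them E2f2 (-0.89, adjusted p = 1.1e-06) and E2f8 (-0.54, adjusted p = 0.0022), while Tfdp1 had -0.04 (adjusted p = 0.795).

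The genes that act on the inhibitors gave the following. Of 5 genes of p27 turnover, Skp2, the ligase subunit that marks p27 for degradation, was higher in si14-3-3ζ cells at 0 h (0.65, limma adjusted p = 0.00356) and 24 h (0.45, adjusted p = 0.0235), with 0.27 at 48 h (adjusted p = 0.127). Cks1b, its cofactor, was lower at 24 h (-0.23, adjusted p = 0.042) and 48 h (-0.84, adjusted p = 9.3e-08). The locus of Usp19, which the table joins with the laminin gene Lamb2 so that neither can be read alone, was higher at 48 h (0.31, adjusted p = 0.00966), and Cul1 and Ubac1 were not called at any time. FoxO factors and hedgehog effectors gave 2, 4 and 5 of 9 tested genes higher and 1, 1 and 0 lower over the 3 times, with medians of 0.15, 0.18 and 0.38, while 8.10%, 14.5% and 23.3% of all loci were higher and 9.16%, 14.0% and 22.8% lower. Foxo4 (0.60, 0.65 and 0.67, adjusted p = 3.5e-04, 6.4e-05 and 1.9e-05) and Sufu (0.41, 0.50 and 0.38, adjusted p = 0.00908, 0.00112 and 0.00502) were higher at each time, and Foxo3 at 24 h (0.57, adjusted p = 4.9e-05) and 48 h (1.00, adjusted p = 1.6e-08).

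Of 12 tested p53 genes and targets, set beside Cdkn1a, 6, 6 and 12 were higher in si14-3-3ζ cells at 0, 24 and 48 h and 1, 0 and 0 lower, with median log2 differences of 0.32, 0.26 and 0.45. All loci had shares of 8.10%, 14.5% and 23.3% higher and 9.16%, 14.0% and 22.8% lower and medians of 0.01, 0.02 and 0.01. Trp53inp1 was higher at each time (0.93, 1.84 and 1.85, limma adjusted p = 0.00427, 1.7e-06 and 6.7e-07). Gadd45a was lower at 0 h (-0.31, adjusted p = 0.0138) and higher at 48 h (0.49, adjusted p = 8.1e-05), and Ccng1 was higher at 48 h (0.40, adjusted p = 8.9e-05). Like Cdkn1a, 11 of the 12 were lower at 24 h than at 0 h in si14-3-3ζ cells and 10 of 12 in siCon cells (31.9% and 33.4% of all loci). Of 12 tested Polycomb and Ink4 regulators, set beside Cdkn2a and Cdkn2b, the counts were 2, 2 and 6 higher and 0, 0 and 1 lower in si14-3-3ζ cells, with medians of 0.14, 0.07 and 0.12, to be read against the same shares of all loci, which the count at 24 h lay near. Ezh2, which silences the Ink4 locus, was higher at 24 h than at 0 h by 1.77 in si14-3-3ζ cells (adjusted p = 4.7e-10) and by 1.88 in siCon cells (adjusted p = 1.3e-10), Suz12 by 0.80 (adjusted p = 2.1e-06) and 0.97 (adjusted p = 9.1e-08), and Cbx7 was lower by -1.54 (adjusted p = 1.2e-06) and -1.70 (adjusted p = 2.4e-07). Of 8 tested imprinted genes, listed for the imprinted Cdkn1c, none was called at 0 h. At 24 h 3 were higher and 1 was lower, and at 48 h there were 3 of each. Their median log2 differences were 0.03, 0.00 and -0.12 at the 3 times. These counts are to be read against the same shares of all loci, and the count lower at 24 h lay near its share (14.0%). Peg3 was higher at 24 h (0.87, adjusted p = 9.4e-05) and 48 h (1.03, adjusted p = 5.6e-06), Igf2r at 24 h (0.52, adjusted p = 0.00984) and 48 h (0.44, adjusted p = 0.016), and the locus of H19, which holds Mir675 too, was lower at 48 h (-1.13, adjusted p = 0.00214).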

How the data were processed

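The authors mapped 150 bp read pairs to NCBIM37 using TopHat 2.0.11, and Cufflinks 2.2.0 gave the deposited FPKM of each locus, with no read counts, so library depth is unknown. Every value column belonged to 1 of the 24 libraries. A locus was tested if 4 or more libraries reached 1 FPKM. The model on log2(FPKM + 1) had a term per group, with moderated variances that follow mean level (limma 3.58.1 in R 4.3.3), and p-values were adjusted over 9251 loci. It was tested on simulated data. Exact permutation tests covered 72 comparisons, unadjusted, of which 38 had p = 0.0286. Python 3.11.15, numpy 2.4.6, pandas 2.3.3 and matplotlib 3.10.9 were used.

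The members and gene lists were chosen with earlier results of these data known. Named were all member loci, Ywhaz, the 3 tested loci of smallest F-test p in each pathway list, genes of pathway lists of at most 8, and the 3 loci of highest Pearson r with each member, predicted genes left out. Fabp4, Adipoq and Cidec were named after their values were seen. Library numbers were taken to pair libraries where deviations from the group means correlated above 0.1 in every pair, a hint from the data and not from the labels. That held for knockdown at 24 h (0.101 to 0.443), for siCon induction (0.179 to 0.569 over the 3 spans) and for si14-3-3ζ induction from 0 to 24 h (0.135 to 0.546) and 24 to 48 h (0.111 to 0.427). Alternatives changed the pseudocount, the filter, the scaling, the groups fitted, the block and the libraries used.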

Additional observations from a re-analysis of the deposited data

Results flagged for a closer look

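In si14-3-3ζ cells at 48 h, Cdkn2d was 2.02 FPKM in replicate 3 and 2.38 to 2.45 FPKM in the other 3 libraries. Its gap took a share of 0.835 of the group's range, above Dixon's 95% critical value for 4 samples. This was 1 of 48 groups examined, and chance flags about 1 in 20.

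In 5 cases a member's response to induction differed between si14-3-3ζ and siCon cells by limma's test of the difference itself. From 24 to 48 h, Cdkn2c differed by -0.80 on the log2 scale (adjusted p = 0.0193). Over 48 h, Cdkn1b differed by 0.61 (adjusted p = 0.00296), Cdkn2a by 0.63 (adjusted p = 0.00462), Cdkn2b XLOC_021824 by 1.69 (adjusted p = 0.00714) and Cdkn2b XLOC_023217 by 1.38 (adjusted p = 3.7e-04).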

How the results depend on the processing

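Of the 96 pairs of a member and a comparison, 48 were called by limma, and 35 of these were called under every alternative, planned or added. The count of members called at 0 h (5) ranged between 3 and 5 without single libraries (3 without si14-3-3ζ 0 h replicate 3, or replicate 2 or 4 of siCon 0 h) and was 3 among the libraries numbered 1 and 3. For induction from 24 to 48 h in siCon cells (3), it ranged between 1 and 3 without single libraries (1 without siCon 24 h replicate 4) and was 5 with the replicate block, 1 among the libraries numbered 1 and 3 and 6 among those numbered 2 and 4. Over 48 h in siCon cells (7) it ranged between 4 and 7 without single libraries (4 without siCon 48 h replicate 3). For the difference of responses from 0 to 24 h (0) it was 1 after median-ratio scaling, 1 in a fit of only the groups compared, 3 with the replicate block (4.37% of all loci), 1 among the libraries numbered 2 and 4, and 0 to 1 without single libraries (1 without replicate 1 of siCon 0 h, or replicate 2 of siCon 48 h). For that from 24 to 48 h (1) it was 2 after median-ratio scaling, 2 after quantile normalization, 4 with the replicate block (17.6% of all loci), 0 among the libraries numbered 2 and 4, and 1 to 2 without single libraries (2 without si14-3-3ζ 48 h replicate 2, replicate 4 of siCon 24 h, or either of replicates 1 and 2 of siCon 48 h). For Cdkn2c over 48 h in siCon cells the libraries numbered 2 and 4 reversed the value to -0.13. The cause was not tested in any of these.

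Where numbers were not taken to pair libraries, the block gained 8 calls and lost none. These were Cdkn2b XLOC_021824 at 48 h (adjusted p = 0.0118), Cdkn2b XLOC_023217 over 48 h in si14-3-3ζ cells (adjusted p = 0.0105), the differences of responses from 0 to 24 h of Cdkn2a (adjusted p = 0.0225), Cdkn2b XLOC_021824 (adjusted p = 0.0232) and Cdkn2b XLOC_023217 (adjusted p = 4.1e-04), and those from 24 to 48 h of Cdkn2a (adjusted p = 0.00784), Cdkn2b XLOC_023217 (adjusted p = 0.00361) and Cdkn3 (adjusted p = 0.028). The split by library number was added after the data were seen. FPKM without counts limit what can be said of Cdkn2d and Cdkn2b XLOC_021824, which the filter on a mean FPKM of 5 removed, so that alternative has no value for them. Exact tests reached their smallest p in 38 comparisons on the log2 scale and in 39 after median-ratio scaling, against 38 on FPKM.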
